A study of Mus musculus with 6 samples.

Results

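The 10 long noncoding RNAs Malat1, Neat1, H19, Meg3, Gas5, Kcnq1ot1, Mir17hg, Snhg1, Snhg12 and Snhg18 were followed by RNA-Seq in colon tissue of mice with dextran sulfate sodium (DSS) colitis. They were taken by name, with earlier results of these data known, and all 10 were found among the 27546 genes of the expression table. The table held 1 library from each of 3 Gm31629-/- mice and 3 wild-type (WT) littermates, with levels given as FPKM, a count of sequenced fragments scaled to gene length and to library size. Gm31629 is itself a long noncoding RNA, and the Gm31629-/- mice carry a deletion of its region on chromosome 1 in every tissue, not only in the colon. Both groups were on a strain given as C57BL/6 in the labels and C57BL/6J in the study's methods, were 8 weeks old, drank 3% DSS, a detergent-like polymer that injures the colon lining, for 7 days and were killed on day 8. No mouse without DSS was compared here, so the comparison is of the 2 genotypes under colitis. No row of the table was named Gm31629, and the deletion was therefore not checked in the libraries. The study's methods speak of male mice, and 5 of the 6 libraries went against this. Xist, the RNA of the inactive X chromosome of females, stood at 8.35 to 13.8 FPKM in those 5 libraries, where the Y-linked genes Ddx3y, Uty, Kdm5d and Eif2s3y were listed at 0. Gm31629-/- mouse 1 had Xist at 0.00606 FPKM and these 4 genes at 2.03 to 15.4 FPKM, so the calls of the 10 RNAs are also given without that mouse.

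Long noncoding RNAs are transcripts that do not work through an encoded protein, and these 10 fall into 4 kinds. Malat1 and Neat1 stay in the nucleus and are transcribed from neighbouring genes. Malat1 resides in nuclear speckles, which are stores of splicing factors, and the long form of Neat1 is the scaffold on which paraspeckles assemble. Gas5, Snhg1, Snhg12 and Snhg18 are host RNAs, whose introns release small nucleolar RNAs (snoRNAs) that guide the chemical modification of ribosomal RNA. The spliced remainder of several such hosts is degraded by nonsense-mediated decay when it is translated. H19, Meg3 and Kcnq1ot1 are imprinted, being expressed from the chromosome inherited from 1 parent. H19 and Meg3 are expressed from the maternal copy and Kcnq1ot1 from the paternal copy, where it silences neighbouring genes in cis. Mir17hg is the precursor of the miR-17-92 microRNA cluster, a target of Myc that favours proliferation.

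Several of the 10 carry smaller RNAs, and the sequences are shown because those small RNAs are the working products of the hosts, while the library measured the hosts. The library kit selects polyadenylated RNA and keeps fragments too long for mature microRNAs. Mir17hg encloses 6 microRNA genes on chr14, of which these mature products, from RefSeq on GRCm38.p6, fall into 4 seed groups, with the seed (bases 2 to 8) in capitals.
mmu-miR-17-5p: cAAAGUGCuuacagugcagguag
mmu-miR-20a-5p: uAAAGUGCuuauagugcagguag
mmu-miR-18a-5p: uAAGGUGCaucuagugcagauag
mmu-miR-19a-3p: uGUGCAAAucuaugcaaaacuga
mmu-miR-19b-3p: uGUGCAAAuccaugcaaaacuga
mmu-miR-92a-3p: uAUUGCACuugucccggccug
The miR-17-5p and miR-20a-5p sequences share the seed AAAGUGC, miR-19a-3p and miR-19b-3p share GUGCAAA, and miR-18a-5p and miR-92a-3p each have their own.

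H19 encloses 1 microRNA gene on chr7 and Meg3 encloses 2 on chr12. The mature products of the H19 gene and 1 of those of Meg3 are given with the seed in capitals, and their seeds differ from one another and from those of the Mir17hg cluster.
mmu-miR-675-5p: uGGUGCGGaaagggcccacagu
mmu-miR-675-3p: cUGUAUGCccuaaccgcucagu
mmu-miR-770-5p: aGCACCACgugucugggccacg
None of the 9 microRNA genes inside Mir17hg, H19 and Meg3 was a row of the table, and their mature products were not measured.

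The snoRNA hosts are known for a second sequence feature. The translation machinery is encoded by TOP mRNAs, which begin with a C followed by a run of pyrimidines, and Gas5 and Snhg1 are known to share this start. The windows below run from 15 bases before the start site to 30 bases after it, from RefSeq on GRCm38.p6, and capitals mark the longest run of C and T that begins with C within 3 bases of the annotated start, on the gene's strand. For Gas5, the downstream of the 2 listed starts is shown, and Rack1, a TOP mRNA of the small ribosomal subunit, is given for comparison.
Gas5, chr1:161035151-161035195, plus strand: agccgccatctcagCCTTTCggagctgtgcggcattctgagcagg
Snhg1, chr19:8723472-8723516, plus strand: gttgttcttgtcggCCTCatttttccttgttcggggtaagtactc
Snhg12, chr4:132308663-132308707, plus strand: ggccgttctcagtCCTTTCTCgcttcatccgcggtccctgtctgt
Snhg18, chr15:32244633-32244677, minus strand: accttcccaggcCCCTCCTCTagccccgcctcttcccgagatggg
Rack1, chr11:48800345-48800389, plus strand: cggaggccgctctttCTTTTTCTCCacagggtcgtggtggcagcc
The runs were 6 bases in Gas5, 4 in Snhg1, 8 in Snhg12, 9 in Snhg18 and 10 in Rack1. A run of at least 4 bases was found at 18.7% of all 32851 starts listed and at 37.7% of the 77 starts of ribosomal protein genes, and a run of at least 8 bases at 3.15% and 23.4%. A run of this kind is a match of letters and not a measured start.

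All 10 RNAs were higher in every Gm31629-/- mouse than in any WT mouse, and none was lower. Over all 27546 listed genes, 31.0% had groups that did not overlap in this direction, and 36.3% of those tested as described next. A gene was called when its adjusted p was under 0.05 and its log2 fold change was above 1 or below -1. The test was limma on log2(FPKM + 1), so fold changes of low genes are understated. It covered 14657 genes with a mean of at least 0.5 FPKM over the 6 libraries and adjusted by the method of Benjamini and Hochberg over all of them. Of the 10 RNAs, 8 were tested, and 5 of these were called higher (Malat1, Neat1, Meg3, Gas5 and Snhg1), against 18.4% of all tested genes and 11.9% of the 624 tested long noncoding RNA genes. Without Gm31629-/- mouse 1, 4 were called higher, and Malat1 was at 1.68, Neat1 at 1.94, Meg3 at 2.15, Gas5 at 1.16 and Snhg1 at 0.86. The uncalled Mir17hg, Snhg12 and Snhg18 were then at 0.69, 0.50 and 0.34. None was called lower by limma, against 4.64% of all tested genes, and none was lower at an unadjusted p under 0.05. None was called lower by voom (limma on whole fragment numbers recovered from the FPKM values), against 6.68% of the genes in that fit. H19 and Kcnq1ot1 were below the expression minimum. Meg3 and Mir17hg reached it only through the Gm31629-/- group, where they were high. Among the 6 RNAs that reached it in both groups 4 were called higher, against 11.6% of all such genes. Of the 403 long noncoding RNA genes that reached it in both groups, 28 were called higher. The median log2 fold change was 1.19 over the 8 tested RNAs, 0.33 over tested long noncoding RNA genes and 0.15 over all tested genes.

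**Figure D1:**
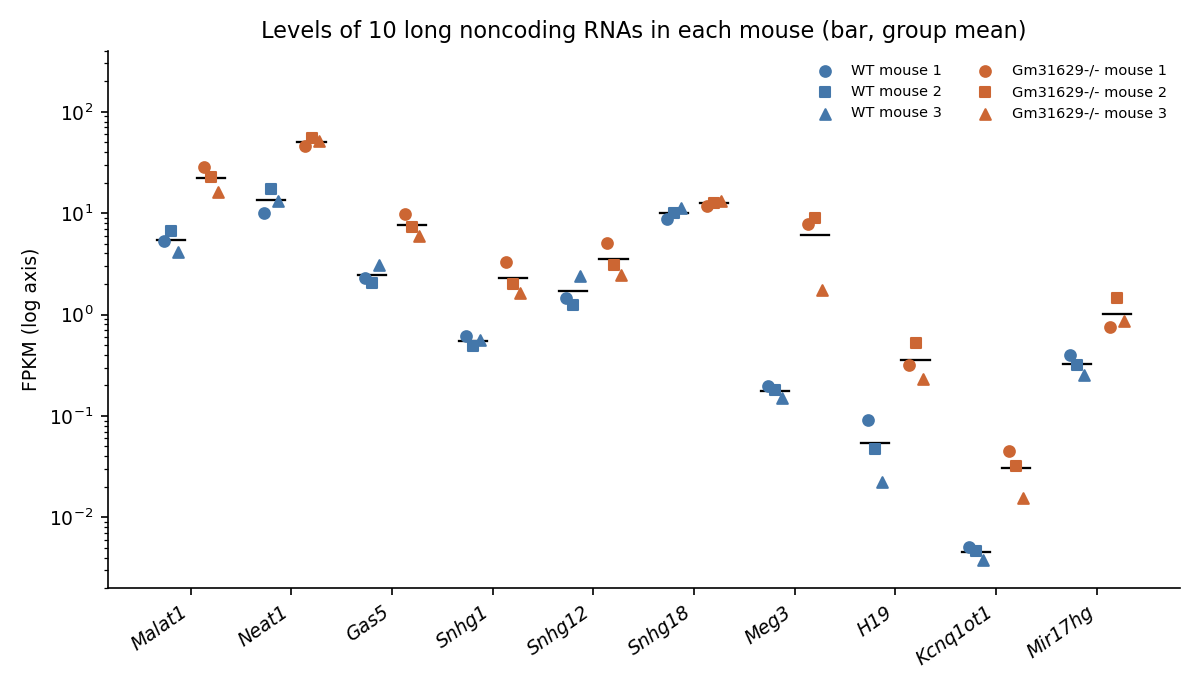
FPKM (log axis) of the 10 RNAs in each mouse, with WT in blue and Gm31629-/- in orange, the symbol giving the mouse number and the bar the group mean of 3 mice. The groups are apart for all 10, widest for Meg3 and closest for Snhg12 and Snhg18, and Gm31629-/- mouse 3 is the lowest of its group for 7 of them.

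The libraries themselves differed in the genes detected and in cell type markers, and every value below is to be read beside these differences. The depth was alike, at 18006000 to 18795200 fragments a library as worked out from the FPKM steps, but 22456 to 23600 genes were above 0 in the Gm31629-/- libraries and 19938 to 20118 in the WT libraries. Epithelial markers were present in all 6, with Epcam at 990 to 1179 FPKM in Gm31629-/- and 1007 to 1164 FPKM in WT. The summed level of 15 epithelial markers was 8094 to 9589 FPKM in Gm31629-/- and 12973 to 14171 FPKM in WT, with 4 called lower and 0 higher. Smooth muscle markers summed to 1323 to 2050 FPKM against 25.7 to 45.8 FPKM, with 10 of 11 tested called higher. Called higher too were 10 of 10 fibroblast, 10 of 10 endothelial, 11 of 12 enteric neuron and glia, 9 of 10 macrophage and 9 of 10 neutrophil markers. So were 6 of 9 tested B and plasma cell markers and 4 of 9 tested T cell markers, against 18.4% of all tested genes. All 11 called neuron and glia markers and 7 of the endothelial ones reached the expression minimum only through the Gm31629-/- group. So did 3 macrophage and 3 neutrophil markers, and 2 each of the fibroblast, smooth muscle, T cell, and B and plasma cell markers called. Elavl4, a marker of enteric neurons, was listed at 0 in all 3 WT libraries. The part of this difference in cell content in the results below was not tested, and in bulk tissue fewer cells of a type and less RNA per cell cannot be told apart.

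Malat1 and Neat1, the nuclear RNAs, both rose. The genes lie 22035 bases apart on the minus strand of chr19, Malat1 at chr19:5795690-5802672 and Neat1 at chr19:5824708-5845478 (GRCm38). Malat1 stood at 28.4, 22.9 and 16.1 FPKM in Gm31629-/- mice 1 to 3 and at 5.37, 6.66 and 4.13 FPKM in WT mice 1 to 3. The lowest Gm31629-/- mouse was well above the highest WT mouse. The means were 22.5 ± 6.18 and 5.39 ± 1.26 FPKM (SD, n = 3 each), and the log2 fold change was 1.86 ± 0.25 (SE; limma adjusted p = 0.00155). These levels rest on 2060 to 3648 fragments a library in Gm31629-/- and 542 to 837 in WT.

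Neat1 stood at 45.9, 54.9 and 51.9 FPKM in the Gm31629-/- mice and at 9.94, 17.2 and 13.2 FPKM in the WT mice. It was the steadiest of the called RNAs among the Gm31629-/- mice, which spread by 8.95% of their mean, against 27.0% among the WT mice. Its log2 fold change was 1.87 ± 0.21 (SE; limma adjusted p = 0.000802), and it had the highest mean level of the 10 RNAs. The annotation gives Neat1 a long transcript of 20771 bases and a short one of 3004 bases that share their start. The table has 1 value for both, so the form that builds paraspeckles could not be read apart from the short form. The 3′ ends of Malat1 and long Neat1 are known to be made by RNase P and not by ordinary polyadenylation, and the kit selects poly(A) tails.

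Few of the proteins that share the nuclear bodies of Malat1 and Neat1 were called. Of 14 paraspeckle proteins tested, 1 was called higher, Hnrnph3 (log2 fold change 1.02, limma adjusted p = 0.005), and 0 lower, with a median of 0.00. Hnrnph3 lost its call when libraries were rescaled by the median ratio of genes (0.81), and no paraspeckle protein was called without Gm31629-/- mouse 1 or 2 or without WT mouse 1 or 2. Nono, an essential paraspeckle protein that binds Neat1 directly, stood at 31.4 to 37.9 FPKM in Gm31629-/- and 42.0 to 48.9 FPKM in WT (log2 fold change -0.41, limma adjusted p = 0.0525). Of 12 nuclear speckle proteins, 0 were called in either direction, and 4 were higher at an adjusted p under 0.05 without passing the fold threshold (28.9% of all tested genes were higher at that p), among them the splicing factor Srsf5 at 0.95. The median over the speckle proteins was 0.14, beside 0.15 for all tested genes.

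Among the snoRNA hosts, Gas5 and Snhg1 were called higher. Gas5, named for its rise in growth-arrested cells, stood at 9.78, 7.35 and 6.01 FPKM in the Gm31629-/- mice and at 2.27, 2.02 and 3.06 FPKM in the WT mice. The means were 7.71 ± 1.91 and 2.45 ± 0.54 FPKM (SD, n = 3 each), with a log2 fold change of 1.33 ± 0.21 (SE; limma adjusted p = 0.00323). Snhg1 stood at 3.29, 2.01 and 1.63 FPKM against 0.619, 0.486 and 0.556 FPKM. Every Gm31629-/- value of Snhg1 was far above the WT values, which lay close together, and the log2 fold change was 1.06 ± 0.21 (SE; limma adjusted p = 0.00716). That fold change lay just above the threshold, and it fell below it without Gm31629-/- mouse 1 (0.86) and when libraries were rescaled by the median ratio of genes (0.92). Counts behind Snhg1 were lower, at 89 to 180 fragments in Gm31629-/- and 26 to 34 in WT.

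Snhg12 and Snhg18 were not called. Snhg12 stood at 5.05, 3.10 and 2.44 FPKM in the Gm31629-/- mice and at 1.46, 1.23 and 2.42 FPKM in the WT mice. Gm31629-/- mouse 3, with 73 fragments, and WT mouse 3, with 74, were level for this RNA, and the groups failed to overlap by only 0.0225 FPKM. The log2 fold change was 0.73 ± 0.27 (SE; limma adjusted p = 0.0614). Snhg18 stood at 11.9, 12.5 and 13.3 FPKM against 8.80, 10.1 and 11.2 FPKM, the closest groups of the 10 RNAs in ratio, with a log2 fold change of 0.30 ± 0.15 (SE; limma adjusted p = 0.135). It was also the only one of the 10 that was highest in Gm31629-/- mouse 3. Rescaling by the median ratio of genes moved the median of all tested genes from 0.15 to -0.05 and left Snhg18 at 0.06.

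The 4 hosts enclose 10 (Gas5), 8 (Snhg1), 5 (Snhg12) and 1 (Snhg18) annotated snoRNA genes. Of these, Snord123 inside Snhg18 was the only one listed, at 5.61 ± 3.76 FPKM in Gm31629-/- and 4.56 ± 1.92 FPKM in WT (SD, n = 3 each). The difference of 0.16 on the log2 scale was not past the test (limma adjusted p = 0.772). Snord123 lies inside the unspliced transcript of its host, and its value is uncertain. Whether counting used strand was not given in the sources used here, and genes that overlap or abut on the opposite strand may share reads. Slc3a2, a subunit of amino acid transporters that begins 105 bases from Snhg1 on the other strand, was higher as well (log2 fold change 0.93, limma adjusted p = 0.00549, under the fold threshold). The neighbours Trnau1ap of Snhg12, with 0.06 (limma adjusted p = 0.789), and Sema5a of Snhg18, with -0.17 (limma adjusted p = 0.467), had small differences.

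Among 11 other tested snoRNA hosts, 1 was called higher and 0 lower, against 18.4% and 4.64% of all tested genes. At an adjusted p under 0.05, 4 of the 11 were higher, against 28.9% of all tested genes. The called host was Snhg11, at 9.13, 7.92 and 1.46 FPKM against 0.0254, 0.0130 and 0.0125 FPKM (log2 fold change 2.57, limma adjusted p = 0.00686). Snhg11 is known as a neuronal transcript. It is the 1 host of these 11 that the annotation used here classes as protein coding, and it reached the expression minimum only through the Gm31629-/- group. The enteric neuron and glia markers summed to 130, 227 and 53.5 FPKM in Gm31629-/- mice 1 to 3 and to 2.91 to 5.52 FPKM in WT, and their part in this value was not tested. Snhg6, Snhg8 and Snhg20 were higher under the fold threshold, by 0.70, 0.69 and 0.95. The median over these 11 hosts was 0.31.

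Most other mRNAs of the TOP class lay below the median of all tested genes. They were 73 of 79 ribosomal protein mRNAs and 12 of 17 others. Of 79 ribosomal protein mRNAs tested, 0 were called higher and 1 lower, with 41 lower and 3 higher at an adjusted p under 0.05 (14.6% and 28.9% of all tested genes) and a median log2 fold change of -0.47. The 41 lower became 64 after rescaling by the median ratio, 1 (with 10 higher) after rescaling to the epithelial markers, and 14 to 42 with a mouse left out, the fewest without WT mouse 3. Of 17 other TOP mRNAs of translation, Rack1 (-1.06) and Pabpc1 (-1.05) were called lower and Nap1l1 (1.20) higher, with a median of -0.36. None of the 17 was called lower after rescaling to the epithelial markers, none was called higher after rescaling by the median ratio, and 1 was called lower without Gm31629-/- mouse 1 or without mouse 3. These medians turned positive, at 0.06 and 0.17, when libraries were rescaled to the epithelial markers, a scaling that also lifted the median of all tested genes to 0.55. Under each scaling run, the medians of both TOP groups stayed below the median of all tested genes, and Gas5 and Snhg1 stayed above it. Each rescaling divides a whole library by a single factor and moves all genes nearly alike. This order could therefore hardly change, and nothing is concluded from its staying the same. Of 12 core proteins of snoRNA particles, which are needed to make snoRNAs, 1 was called lower, Ruvbl2 (-1.18, limma adjusted p = 0.0156, not called after rescaling to the epithelial markers at -0.69), and 0 higher. That count ran from 0 without Gm31629-/- mouse 3, WT mouse 1 or WT mouse 3 to 3 without WT mouse 2. Of 10 factors of nonsense-mediated decay, Upf2, which bridges the decay complex, was called higher (1.27, limma adjusted p = 0.0117), with 0 called without WT mouse 3, and the median was 0.01. Upf1, the helicase of the pathway, was at -0.30 (limma adjusted p = 0.14).

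**Figure D2:**
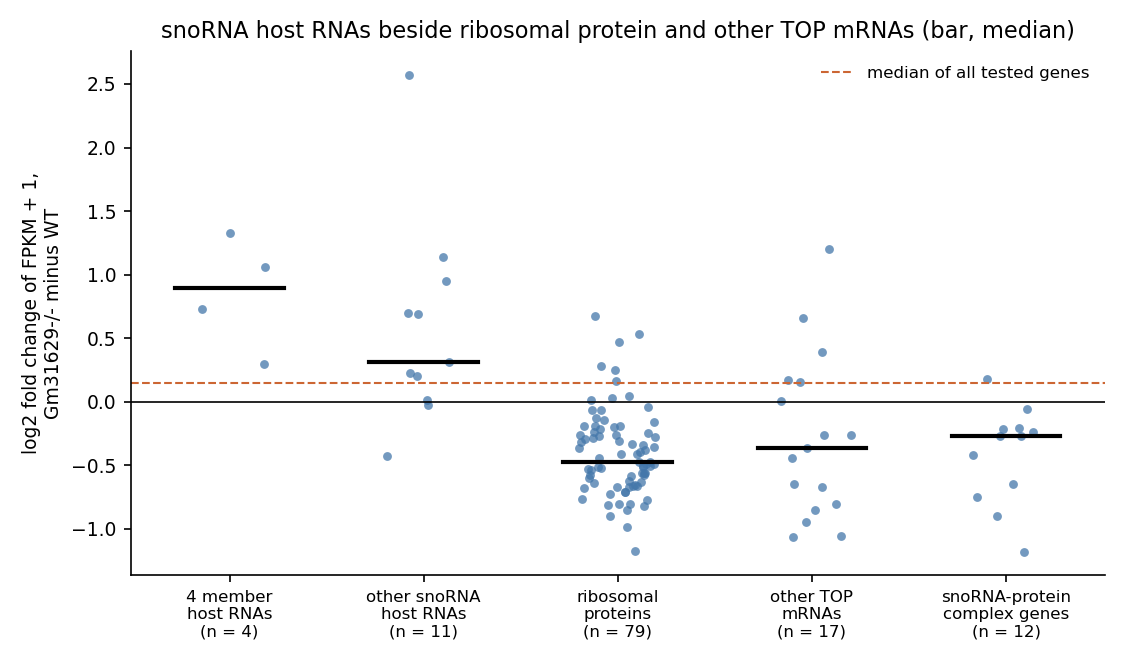
Log2 fold change of FPKM + 1 (Gm31629-/- minus WT, 3 mice each) for single genes of 5 groups, with a bar at each group's median and a dashed line at the median of all tested genes (0.15). The 4 host RNAs of interest lie at 0.30 to 1.33, while most ribosomal protein mRNAs lie below 0 at this scaling and their median is -0.47, which becomes 0.06 after rescaling to epithelial markers.

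Meg3 had the largest fold change and the largest spread between Gm31629-/- mice. Meg3, at chr12:109541001-109571726 (GRCm38), stood at 7.77, 8.90 and 1.76 FPKM in the Gm31629-/- mice and at 0.197, 0.178 and 0.150 FPKM in the WT mice. Mouse 3 was 5.05-fold below mouse 2, yet still far above every WT mouse. The means were 6.14 ± 3.84 and 0.175 ± 0.0238 FPKM (SD, n = 3 each), a ratio of 35.1, and the log2 fold change on the scale of FPKM + 1 was 2.40 ± 0.46 (SE; limma adjusted p = 0.00622). It was 2.99 without Gm31629-/- mouse 3 and 2.07 without Gm31629-/- mouse 2, the extremes of leaving out each mouse in turn. The fragments were 2585, 2970 and 585 in Gm31629-/- and 66, 58 and 51 in WT.

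Meg3 lies in the imprinted domain of Dlk1, a paternally expressed ligand-like protein, with the maternally expressed RNAs Rian, which hosts snoRNAs, and Mirg, which hosts microRNAs. Rian was called higher, at 2.63, 4.23 and 1.13 FPKM against 0.213, 0.122 and 0.105 FPKM (log2 fold change 1.58, limma adjusted p = 0.00708), with mouse 3 again the lowest of the Gm31629-/- mice. Mirg was below the expression minimum, at 0.298, 0.647 and 0.187 FPKM against 0.0445, 0 and 0 FPKM, and kept the same order of mice. Dlk1 was also below it, at 0.701, 1.03 and 0.318 FPKM against 0.335, 0.0982 and 0.160 FPKM, and its groups overlapped. At the edge of the domain, Begain, a brain synaptic protein, was called higher (1.49, limma adjusted p = 0.00238), while Wdr25 was at 0.10 (limma adjusted p = 0.624). Mouse 3 was the lowest Gm31629-/- mouse for 6 of the 7 listed genes of this domain, of which 4 had groups apart in this direction. The same held for 44.1% of all tested genes and for 55.2% of tested genes whose groups were apart in this direction. Mouse 3 was also the lowest for all 12 enteric neuron and glia markers, 9 of 10 T cell markers, 8 of 12 smooth muscle markers and 64 of 79 ribosomal protein mRNAs. The other cell types differed in this, with 7 of 10 neutrophil, 4 of 10 macrophage and 2 of 10 fibroblast markers lowest in mouse 3. The same held for 1 of 10 endothelial, 0 of 10 B and plasma cell and 2 of 15 epithelial markers. Rian and Begain reached the expression minimum only through the Gm31629-/- group.

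H19 was barely detected and was higher in the Gm31629-/- group. H19, at chr7:142575529-142578143 (GRCm38) and known for high levels before birth and low levels after it, stood at 0.321, 0.525 and 0.229 FPKM against 0.0912, 0.0468 and 0.0224 FPKM. These values stand for 14, 23 and 10 fragments against 4, 2 and 1. The ratio of the summed fragments, 47 against 7, was 6.71 with a 95% exact binomial interval of 3.02 to 17.6, which covers counting error only. An exact two-sided permutation test over the 6 libraries gave p = 0.1, the smallest that 3 against 3 allows. With no filter on low genes, H19 was at 0.36 (limma adjusted p = 0.0305), where 18.2% of all listed genes were higher at an adjusted p under 0.05. Igf2, the growth factor gene that shares enhancers with H19 and is expressed from the other parental copy, stood at 1.34, 1.31 and 1.26 FPKM against 0.142, 0.155 and 0.195 FPKM. The 3 Gm31629-/- mice were nearly equal for Igf2, and its log2 fold change was 0.98 ± 0.14 (SE; limma adjusted p = 0.0018), just under the fold threshold and 1.17 after rescaling to epithelial markers. Farther along, Lsp1, an actin-binding protein of leukocytes, was called higher (2.93, limma adjusted p = 0.000476), and Mrpl23 was at -0.18 (limma adjusted p = 0.383).

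Kcnq1ot1 was higher in every Gm31629-/- mouse, while Kcnq1, the gene in which it lies, fell. Kcnq1ot1, at chr7:143203458-143296549 (GRCm38) on the minus strand inside Kcnq1, stood at 0.0451, 0.0321 and 0.0155 FPKM against 0.00512, 0.00461 and 0.00378 FPKM. Its great length makes these low values 70, 50 and 24 fragments against 8, 7 and 6, a ratio of the summed fragments of 6.86 with a 95% exact binomial interval of 4.32 to 11.4 for counting error. An exact two-sided permutation test gave p = 0.1, the smallest it allows. With no filter the log2(FPKM + 1) scale gave 0.04 (limma adjusted p = 0.271), as the added 1 swamps values this small, and voom on fragments gave 2.57 (adjusted p = 0.011).

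Kcnq1, a potassium channel of epithelia, fell from 18.6, 17.0 and 28.9 FPKM in WT to 1.41, 0.927 and 2.43 FPKM in Gm31629-/- (log2 fold change -3.12 ± 0.28, SE; limma adjusted p = 0.00043). It was called lower under every scaling run. Whether reads of unspliced Kcnq1 fall in Kcnq1ot1 cannot be told apart without strand, and it was not tested. Among the genes that Kcnq1ot1 is known to silence on the paternal copy, Slc22a18, a transporter, was called lower (-1.49, limma adjusted p = 0.00343, and -0.97 after rescaling to epithelial markers, under the fold threshold). Cdkn1c, an inhibitor of the cell cycle, stood at 3.22, 2.31 and 2.06 FPKM against 2.23, 6.54 and 4.07 FPKM (-0.51, limma adjusted p = 0.226), and Phlda2 was at -0.53 (limma adjusted p = 0.307). Ascl2, a transcription factor of crypt stem cells, stood at 0.167, 0.134 and 0.201 FPKM against 3.90, 0.171 and 6.06 FPKM. WT mouse 2 lay within the Gm31629-/- values for Ascl2, and the difference of -1.56 was not past the test (limma adjusted p = 0.0736). Cd81, a membrane protein found on many cell types, was called higher (1.24, limma adjusted p = 0.00686, and 0.99 when rescaled by the median ratio). Of the 10 genes of the domain that were tested, 1 was called higher and 2 lower, against 18.4% and 4.64% of all tested genes.

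Imprinted genes elsewhere that are known to be expressed together with H19 and Igf2 in growing tissues were mostly higher. Of 9 tested, 7 were called higher and 0 lower, against 18.4% of all tested genes called higher. However, 5 of the 7 reached the expression minimum only through the Gm31629-/- group, and of the 4 that reached it in both groups 2 were called. The count was 4 without WT mouse 3 and 5 without WT mouse 1. Ndn, a protein of neurons and of mesenchymal cells, stood at 7.31, 8.32 and 2.55 FPKM against 0.0439, 0.0752 and 0.187 FPKM (2.56, limma adjusted p = 0.0019). Grb10, which restrains insulin receptor signalling, rose by 2.04 (limma adjusted p = 0.00063), Mest by 1.64 and Peg3 by 1.30. Peg3 was not called without Gm31629-/- mouse 1 or 2, without each WT mouse, or with no filter. The receptor Igf2r was at 0.05 (limma adjusted p = 0.825) and Gnas at 0.31 (limma adjusted p = 0.115). Gm31629-/- mouse 3 was the lowest of its group for 12 of the 14 listed genes.

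**Figure D3:**
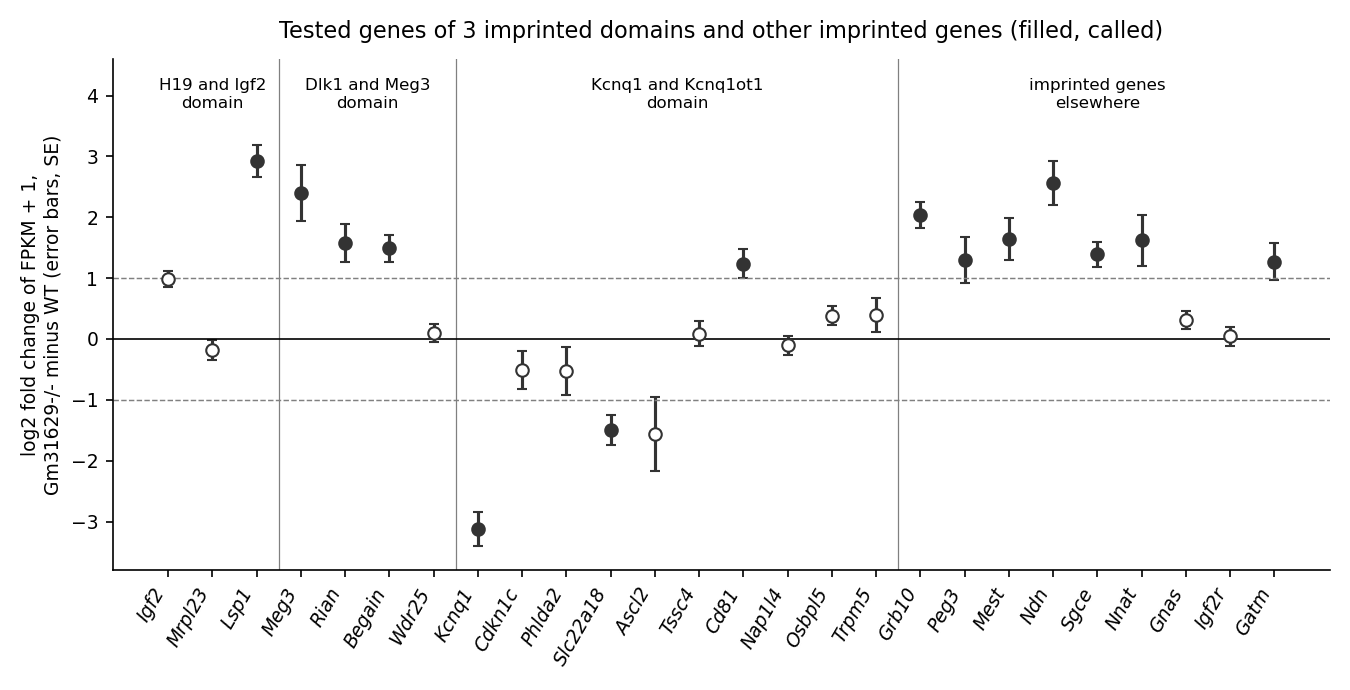
Log2 fold change of FPKM + 1 (Gm31629-/- minus WT, 3 mice each, with SE) for the tested genes of 3 imprinted domains and of other imprinted genes, with filled points for called genes and dashed lines at 1 and -1. Meg3 and Rian lie above 1, Kcnq1 and Slc22a18 below -1, and Igf2 at 0.98, while H19 and Kcnq1ot1 were too low to be tested.

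Mir17hg rose without passing the fold threshold. Mir17hg, at chr14:115042879-115046727 (GRCm38), stood at 0.753, 1.44 and 0.862 FPKM in the Gm31629-/- mice and at 0.397, 0.314 and 0.256 FPKM in the WT mice. Mouse 2 was the highest and the other two Gm31629-/- mice were close to each other. The log2 fold change was 0.60 ± 0.18 (SE; limma adjusted p = 0.0303), and the adjusted p ranged from 0.0151 to 0.106 over its 14 alternatives. It was above 0.05 without each WT mouse (0.0695, 0.0815 and 0.106) and with a replicate block (0.066). With a pseudocount of 0.1 in place of 1 it was 1.37, and voom on fragments gave 1.60, both past the threshold, where 25.2% and 29.1% of all genes tested were called higher. The fragments were 49, 94 and 56 against 26, 20 and 17.

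Of 4 tested factors known to drive Mir17hg, 2 were called lower and 0 higher, against 4.64% of all tested genes called lower. Mycn, another such factor, was below the expression minimum, at 0.709, 0.658 and 0.479 FPKM against 0.262, 0.421 and 0.242 FPKM. Myc was called lower, at 5.92, 11.6 and 5.41 FPKM against 21.2, 10.3 and 23.0 FPKM (-1.14, limma adjusted p = 0.0395), with WT mouse 2 inside the range of the Gm31629-/- mice. E2f2 was called lower (-1.40, limma adjusted p = 0.00353), and E2f3 was lower under the fold threshold (-0.80). After rescaling to the epithelial markers neither Myc (-0.65, adjusted p = 0.197) nor E2f2 (-0.94, adjusted p = 0.0222) was called. Myc was also not called with a replicate block, with no filter, and without Gm31629-/- mouse 1 or 3 or WT mouse 1 or 3. Of 14 mRNAs known as targets of the miR-17-92 microRNAs shown above, 7 were called higher and 0 lower, with a median of 1.09. Over all tested genes, 18.4% were called higher. Of the 13 targets that reached the minimum in both groups 6 were called, against 11.6% of all such genes. Thbs1, a matrix protein known as a target of miR-19, rose by 3.12, and Ccn2, a matrix-associated protein known as a target of miR-18a, by 2.78. Cdkn1a, targeted by miR-17 and miR-20a, was at 0.02 (limma adjusted p = 0.922). Thbs1 and Ccn2 are genes of mesenchymal cells, whose markers were also higher here, and the part of cell content in these values was not tested. The microRNAs themselves were not measured.

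The scale on which libraries were set against each other changed the size of these differences and not their sign. The 8 tested RNAs were positive under each of the 3 other scalings, and 4 were called higher after rescaling by the median ratio, 5 at the same sum and 6 after rescaling to the epithelial markers. Neat1 ranged from 1.62 to 2.38 over all its alternatives and Malat1 from 1.62 to 2.34, each with an adjusted p under 0.05 in all 15. Gas5 ranged from 1.11 to 1.74, also past 0.05 in all 15.

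**Figure D4:**
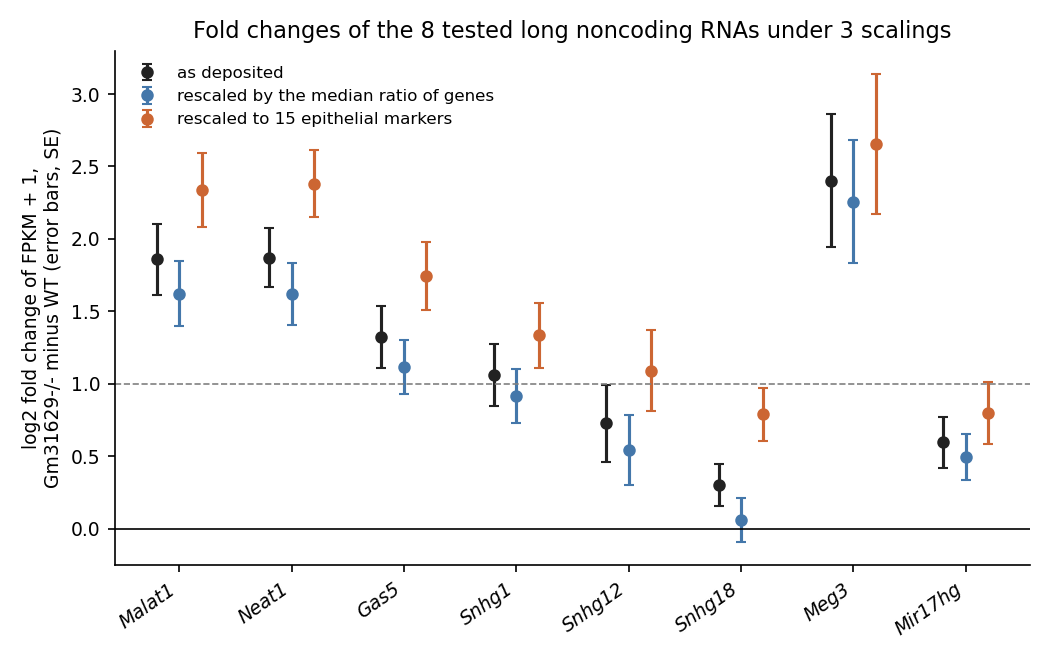
Log2 fold change of FPKM + 1 (Gm31629-/- minus WT, 3 mice each, with SE) of the 8 tested RNAs as deposited, rescaled by the median ratio of genes and rescaled to 15 epithelial markers, with a dashed line at the threshold of 1. Malat1, Neat1, Gas5 and Meg3 stay above 1 throughout, Snhg1 and Snhg12 cross it, and Snhg18 runs from 0.06 to 0.79.

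The order of the Gm31629-/- mice divided the RNAs. Mouse 3 was the lowest of the 3 for 7 RNAs (Malat1, Gas5, Snhg1, Snhg12, Meg3, H19 and Kcnq1ot1), and mouse 1 for the other three (Neat1, Mir17hg and Snhg18). Mouse 1 was the highest for 5, mouse 2 for 4 and mouse 3 for 1. Over all tested genes mouse 3 was the lowest for 44.1%, and for 55.2% of those with groups apart in this direction. Over the 6 libraries Pearson's r between pairs of the 10 RNAs on the log2 scale ran from 0.55 (Kcnq1ot1 with Snhg18) to 0.98 (Gas5 with Snhg1). These 6 points fall into 2 groups that are apart for every RNA, so r mostly restates the genotype difference.

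The genes whose pattern was nearest to each called RNA, by Pearson's r over the 6 libraries among genes with a mean of at least 5 FPKM, were of mixed kinds. For Malat1 they were Tusc3 (0.9993) and Wdr26 (0.998), and for Neat1 Serpina3n (0.9985), an acute phase protease inhibitor, and Plk3 (0.9971), a stress-responsive kinase. For Meg3 they were the smooth muscle kinase Mylk (0.996) and the neuropeptide gene Gal (0.9952). For Gas5 they were Ckb (0.997) and Ldhb (0.9943), and for Snhg1 Zfp869 (0.997) and Pnisr (0.9967). Between 205 and 488 genes had an r above 0.95 with each called RNA, and the nearest genes are therefore not set apart from many others.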

How the data were processed

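Total RNA of whole colon tissue from 6 mice was made into libraries with a TruSeq RNA kit. The submitters' processing notes name HISAT2 2.1.0, HTSeq 0.6.0 and GRCm38. The annotation release and the program that made the FPKM values were not given in the sources used here. The authors deposited 1 table of FPKM values with a column for each mouse, all 6 of which were used. The study's methods speak of RNA pooled from 3 mice a genotype, so the p-values measure only the spread between these samples. From the FPKM values, gene lengths of GENCODE M21 gave whole fragments for 96.3% to 97.2% of values up to 20 fragments, within 0.1 of a whole number. Mean depth limits precision most for H19 and Kcnq1ot1. For H19, Kcnq1ot1 and Snhg12 the length that gave whole fragments differed from that of GENCODE. Intervals cover counting error only.

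limma 3.58.1 (lmFit and eBayes with trend, R 4.3.3) was fitted on log2(FPKM + 1) over genes with a mean of at least 0.5 FPKM, with genotype as the only term. On simulated data with 200 changed genes among 14657, it called 72.5% of changes of 1.5 and 93.5% of changes of 2.5 on the log2 scale, with 2 and 7 false calls. The changed genes were drawn only from those with a mean log2(FPKM + 1) above 2. These recovery rates therefore do not cover lower genes, among them Meg3, Snhg1, Snhg12 and Mir17hg. Alternatives were a pseudocount of 0.1, other filters, 3 rescalings, no trend, a replicate block, voom on the recovered fragments, and each mouse left out. Library replicates differed by far more than sampling noise (mean chi-square per gene 32.1 to 143). Genes described singly, other than the 10 RNAs, were called genes of listed groups, their direct partners, or examples of those groups. Those that were neither called nor direct partners were picked once the values had been looked at. They were Nono, Srsf5, Snhg6, Snhg8, Snhg20, Upf1, Wdr25, Mrpl23, Igf2r, Gnas, E2f3 and Mycn. Cdkn1a, Norad, Tug1, Epcam, Xist, the Y-linked genes and the close neighbours were also among them. The 10 RNAs and the gene lists were chosen with earlier results of these data known.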

Additional observations from a re-analysis of the deposited data

How the results depend on the processing

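Over 116 fits of the 8 tested RNAs under the alternatives, 111 kept their direction and their call, 2 fell below the fold threshold (Snhg1), 3 rose past it (Mir17hg under 2 of them, Snhg12 at 1.09 after rescaling to epithelial markers) and 0 changed sign. The adjusted p alone crossed 0.05 in 7 fits, upward in 4 (Mir17hg) and downward in 3 (Snhg12 at 0.0466 without Gm31629-/- mouse 3 and 0.0128 after rescaling to epithelial markers, Snhg18 at 0.00854 after that rescaling). The count of RNAs called higher was 5, and 3 with a minimum of 5 FPKM, because that minimum removes Meg3 and Snhg1. Over all genes, 2704 were called higher and 680 lower. At a minimum of 5 FPKM, 956 of 7242 tested genes were called higher. Of the 2704 called higher at the usual minimum, 1288 had reached it only through the Gm31629-/- group. The cause of the lower count was not tested. Rescaling by the median ratio gave 1217 lower, rescaling to epithelial markers gave 4179 higher and 274 lower, and voom gave 4671 higher and 1074 lower; the cause was not tested. Without the fold threshold 4238 were higher and 2138 lower by construction. With each mouse left out, 4 to 5 of the RNAs were called higher and 0 lower, and over all genes 2285 to 2892 were higher and 513 to 766 lower. Same-numbered mice did not deviate together (correlations of deviations 0.04, -0.11 and 0.01), not every library correlated best with its own number, and with a replicate block 5 RNAs were called higher, while the ribosomal protein mRNAs lower at an adjusted p under 0.05 went from 41 to 22. H19 had no value at the minimum and 0.36 (limma adjusted p = 0.0305) with no filter, and Kcnq1ot1, at 0.04 with no filter, was past both thresholds by voom (2.57). Depth limits H19 most, at 1 to 4 fragments a library in WT.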

Other observations

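Among other long noncoding RNAs with names in common use, 13 were tested, 6 were called higher and 0 lower by limma on log2(FPKM + 1). Of the 6, 4 (Fendrr, Carmn, Mir155hg and 3110039I08Rik) reached the expression minimum only through the Gm31629-/- group, and of the 7 that reached it in both groups 2 were called, against 11.6% of all such genes. Fendrr, a mesenchymal RNA required for heart and body wall development, stood at 13.2, 21.3 and 11.8 FPKM in Gm31629-/- mice 1 to 3 and at 0.309, 0.418 and 0.368 FPKM in WT mice 1 to 3 (3.55, limma adjusted p = 0.000202). Carmn, a smooth muscle RNA that hosts miR-143 and miR-145, stood at 10.6, 1.62 and 1.16 FPKM and was listed at 0 in all 3 WT libraries, a case in which no ratio is given. Its call was lost with no filter and without each WT mouse (limma adjusted p of 0.0637 and of 0.0746 to 0.0884). Mir22hg rose by 1.54 (limma adjusted p = 0.00258) and Mir155hg, the host of miR-155 in activated leukocytes, by 1.08 (limma adjusted p = 0.00345), with 0.99 when libraries were rescaled by the median ratio and 0.97 without Gm31629-/- mouse 2. The host RNA of miR-100, listed as 3110039I08Rik, rose by 1.80 (limma adjusted p = 0.000508), and 1700020I14Rik, also known as Cyrano, by 1.30 (limma adjusted p = 0.00273). Norad, listed as 2900097C17Rik, was higher by 0.67 and Tug1 by 0.91, both past an adjusted p of 0.05 and under the fold threshold.

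Over all 624 tested long noncoding RNA genes, 74 were called higher and 15 (2.40%) lower. Of the 74, 46 reached the expression minimum only through the Gm31629-/- group, and of the 403 genes that reached it in both groups 28 were called higher. The largest rises with groups apart were Gm42031 (4.10), Fendrr, Bvht (3.42), Meg3 and Gm19610 (2.40), and Bvht is known from the heart muscle lineage. Bvht alone among these rises reached the minimum in both groups. The largest falls were Gm3054 (-4.01), Gm33424 (-2.51), Gm44507 (-2.20), Gm43305 (-1.89) and Gm36640 (-1.82). Gm3054 stood at 154, 173 and 138 FPKM in the WT mice and at 36.3, 3.07 and 4.93 FPKM in the Gm31629-/- mice, and its WT level was above that of each of the 10 RNAs described first.

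Xist, which was near 0 in Gm31629-/- mouse 1 alone, had a log2 fold change of -1.08 (limma adjusted p = 0.371).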
